A study of Rattus norvegicus with 6 samples.

Results

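The genes of the PACAP and VIP system were followed in brainstem cells grown in culture from 2 rat strains, the spontaneously hypertensive rat (SHR), inbred for raised blood pressure, and the normotensive Wistar Kyoto rat (WKY), its usual control. The members were 5 genes, 2 for peptides and 3 for receptors, taken as every probe whose single platform gene symbol was Adcyap1, Vip, Adcyap1r1, Vipr1 or Vipr2. They had 7 probes, 3 of them for Adcyap1r1, among 33849 probes of the table and 12198 genes with a probe of 1 symbol. Each strain had 3 arrays, and each array held RNA of cells pooled from 3 dishes, so a value describes a mixed culture and not a cell. No treatment was named for either strain. The age and sex of the rats and the time in culture were not stated in the labels. The design text calls the replicates of a strain independent and biological, without naming litters or culture days, so p-values measure the spread between these pools. The question is how transcript levels of a hypertensive strain compare with those of its control.

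PACAP, encoded by Adcyap1, and VIP are related peptides of the secretin family that are cut from longer precursors and released by neurons. PACAP acts with high affinity on the PAC1 receptor (Adcyap1r1), while VPAC1 (Vipr1) and VPAC2 (Vipr2) bind both peptides. All 3 receptors couple through the stimulatory G protein to adenylyl cyclase and raise cyclic AMP, and PAC1 can also act through phospholipase C. In the brainstem PACAP is known in neurons of respiratory and cardiovascular control, and both neurons and glia can carry PAC1.

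The PAC1 receptor gene had less signal in SHR cultures than in WKY cultures at each of its 3 probes, by 0.93 ± 0.22 (SE), 0.26 ± 0.13 and 0.52 ± 0.27 on the log2 scale. The peptide genes and the other receptor genes differed between the strains by at most 0.13. No member passed an adjusted p of 0.05 in limma, and neither did any other probe, 0% of the 33249 tested. At an unadjusted p under 0.05 there was 1 member probe of 7, lower in SHR, against 7.65% of all probes tested (4.01% lower and 3.65% higher in SHR). The strains did not overlap at 2 of 7 member probes, against 13.4% of the probes valid on 6 arrays. Of these 2, probe 191010 did overlap before normalization between arrays. The mean was lower in SHR at 6 of 7 member probes, against 51.6% of all probes. The 2 probes without overlap, and 3 of the 6 with the lower mean in SHR, were probes of Adcyap1r1. With so few members, and 3 probes from 1 gene, such counts say little about the group. A lower signal in pooled cells can come from fewer cells of a type or from less RNA per cell, and these cannot be told apart.

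**Figure D1:**
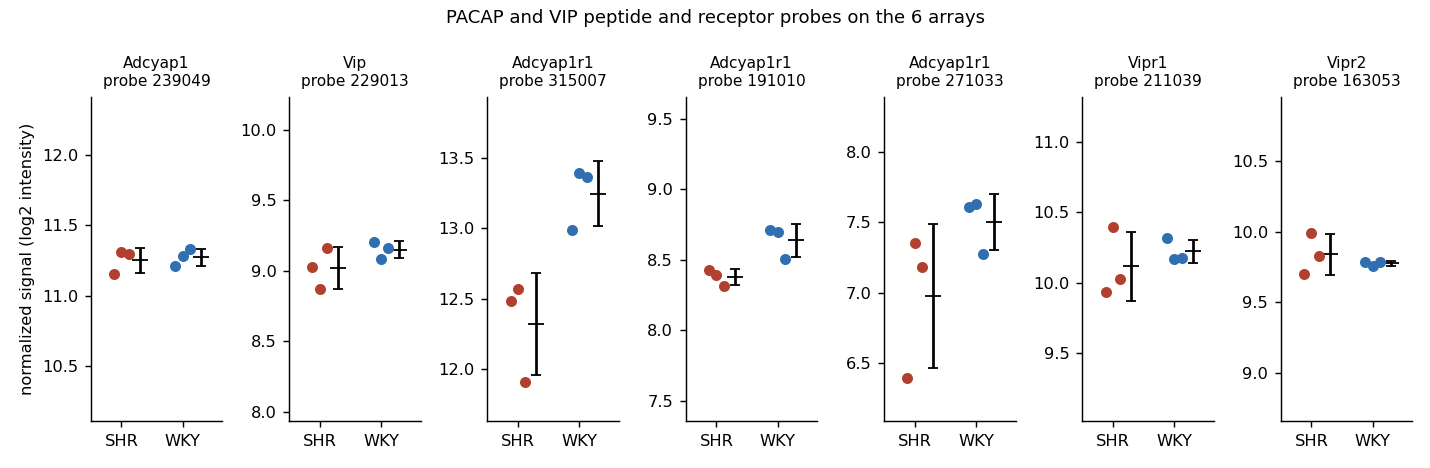
Normalized signal (log2 intensity) of the 7 member probes, with 1 point per array and, beside the points, the mean ± SD of the 3 arrays of a strain (red SHR, blue WKY). Every panel spans the same number of log2 units but starts at its own level. The strains lie apart at Adcyap1r1 probes 315007 and 191010 and overlap at the other 5 probes.

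Values are the submitters' quantile normalized intensities, whose median was 520 units on every array. Before that step the array medians lay between 461 and 607 units. A probe's brightness depends on its own sequence, so levels were not ranked between genes. All 7 member probes had values above 0 on all 6 arrays and were tested. With 3 arrays a strain, precision is limited throughout.

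Adcyap1, the PACAP precursor gene, gave nearly the same signal in both strains. Its intensities were 2275, 2534 and 2514 in SHR arrays 1 to 3 against 2371, 2490 and 2572 in WKY arrays 1 to 3. The lowest and the highest array differed by 0.18 on the log2 scale, and the strains overlapped throughout. The mean log2 signal was 11.25 ± 0.087 (SD, n = 3) in SHR and 11.27 ± 0.059 in WKY. The difference was -0.023 ± 0.12 (SE), with a 95% interval from -0.31 to 0.27 (limma, adjusted p = 0.970). That interval holds ratios of SHR to WKY between 0.804 and 1.21, so a larger change in either direction lies outside it. The sign of this small difference turned in 4 of 18 alternative settings, and it was 0.15 without normalization between arrays.

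Vip also gave similar signals in both strains. Its intensities were 522, 468 and 573 in SHR arrays 1 to 3 against 591, 544 and 572 in WKY arrays 1 to 3, so the highest SHR array lay within the WKY range and the other 2 below it. The mean log2 signal was 9.02 ± 0.15 (SD, n = 3) in SHR and 9.15 ± 0.061 in WKY. The difference was -0.13 ± 0.13 (SE), with a 95% interval from -0.45 to 0.19 (limma, adjusted p = 0.809). It was 0.030 without normalization between arrays, -0.056 without SHR 2 and -0.20 without SHR 3. The Vip probe was designed on an expressed sequence tag, a partial cDNA read, so its gene rests on the platform annotation alone. Those of Adcyap1, Vipr1 and Vipr2 and 2 of the 3 Adcyap1r1 probes cite a current RefSeq transcript of their gene.

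Vip is a classic target of cyclic AMP, which acts through the cyclic AMP response element, and its upstream sequence is shown with that of Adcyap1r1, the member with the largest difference between the strains. Both are the 250 bases before the RefSeq start in build GRCr8, read 5′ to 3′, at chr1:44470230-44470479 on the plus strand for Vip and at chr4:85923921-85924170 on the plus strand for Adcyap1r1. Capitals mark the letters TGACGTC, searched on both strands.
Vip: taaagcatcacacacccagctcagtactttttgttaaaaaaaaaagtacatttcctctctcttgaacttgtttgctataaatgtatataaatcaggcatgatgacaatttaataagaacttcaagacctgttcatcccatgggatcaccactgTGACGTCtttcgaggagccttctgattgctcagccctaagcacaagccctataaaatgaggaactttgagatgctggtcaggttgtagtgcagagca
Adcyap1r1: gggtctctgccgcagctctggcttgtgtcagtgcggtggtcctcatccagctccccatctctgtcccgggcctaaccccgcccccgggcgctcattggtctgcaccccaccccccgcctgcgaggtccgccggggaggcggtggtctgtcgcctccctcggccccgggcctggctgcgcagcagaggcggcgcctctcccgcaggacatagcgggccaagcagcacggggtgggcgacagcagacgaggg

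The Vip window holds TGACGTC once, with its first base 97 bases before the start. These letters were present in 2.95% of 27457 promoter windows of the same length, and in 1 of the 5 members. The full palindrome TGACGTCA, which contains them, was in 466 of the windows and in 0 members. The shorter core TGACG, which both contain, was in 19.0% of windows and in 2 members, Vip and Vipr1. The Adcyap1r1 window has 73.2% G and C and the Vip window 40.0%. A match of letters is a description and not a bound site, and its absence says only that these letters are not in this window.

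Adcyap1r1, the PAC1 receptor gene, was brightest at probe 315007. Like the Vip probe it was designed on an expressed sequence tag, so its gene rests on the platform annotation and its place in the transcript was not checked. Its intensities were 5724, 6085 and 3836 in SHR arrays 1 to 3 against 8098, 10726 and 10547 in WKY arrays 1 to 3. Every SHR array lay below every WKY array, SHR 3 being the lowest and WKY 1 the lowest of its strain, an order of the strains found at 7.3% of the probes valid on 6 arrays. The mean log2 signal was 12.32 ± 0.36 (SD, n = 3) in SHR and 13.25 ± 0.23 in WKY. The difference of -0.93 ± 0.22 (SE), with a 95% interval from -1.47 to -0.39, means 1.90-fold more signal in WKY (1.31 to 2.76). Its unadjusted p was 0.00536 in limma and its adjusted p over all probes 0.506, so it did not pass. It ranked 352 by p among all probes tested, and 1.28% of them had a difference this low or lower. The intensities before normalization between arrays were 5337, 6762 and 4225 in the SHR arrays against 8593, 9515 and 9199 in the WKY arrays, also without overlap.

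The other Adcyap1r1 probes, both designed on the receptor's RefSeq mRNA, gave smaller differences. Probe 191010 read 343, 336 and 318 in the SHR arrays against 419, 414 and 363 in the WKY arrays. Every SHR array was again below every WKY array, but only after normalization between arrays. Before it the probe read 328, 378 and 330 in the SHR arrays against 429, 399 and 324 in the WKY arrays. There WKY 3 lay below every SHR array. Its difference was -0.26 ± 0.13 (SE), with a 95% interval from -0.56 to 0.043 (limma, unadjusted p = 0.0809, adjusted p = 0.676). Probe 271033 read 84.3, 164 and 145 in the SHR arrays against 195, 198 and 155 in the WKY arrays, with SHR 2 above WKY 3. Its difference was -0.52 ± 0.27 (SE), with a 95% interval from -1.18 to 0.13 (limma, unadjusted p = 0.1003, adjusted p = 0.689). SHR 1 decides much of that value, since without it the difference was -0.23 ± 0.18. The mean over the 3 probes differed by -0.57 ± 0.14 (limma, unadjusted p = 0.00473, adjusted p = 0.467 over 1 value per gene).

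**Figure D2:**
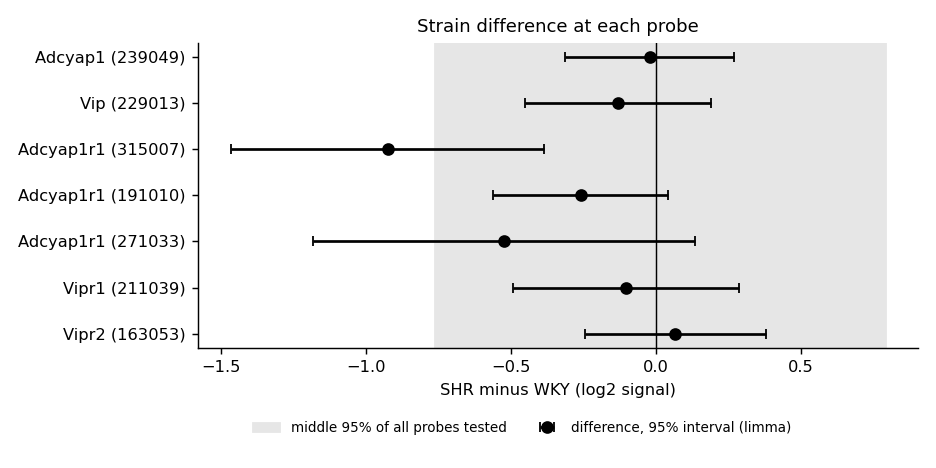
Difference between the strains at each member probe (SHR minus WKY, log2 signal), with points for the estimate, bars for its 95% interval in limma and a grey band for the middle 95% of the differences of all probes tested (-0.76 to 0.79). Adcyap1r1 probe 315007 is the member with an interval that leaves out 0, and its estimate of -0.93 lies outside the band.

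Whether the probes of Adcyap1r1 differ among themselves was tested on the log2 ratio of 2 probes within each array. The ratio of probe 315007 to probe 191010 was 3.94 in SHR and 4.61 in WKY, a strain difference of -0.67 (exact two-sided permutation test over the 6 arrays, p = 0.10, the smallest this design allows). The ratio to probe 271033 differed by -0.40 (exact permutation p = 0.40). After Benjamini-Hochberg adjustment over the 2 pairs the values were 0.20 and 0.40. With 20 splits of the arrays no pair could pass 0.05, so this test cannot say whether the probes differ.

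**Figure D3:**
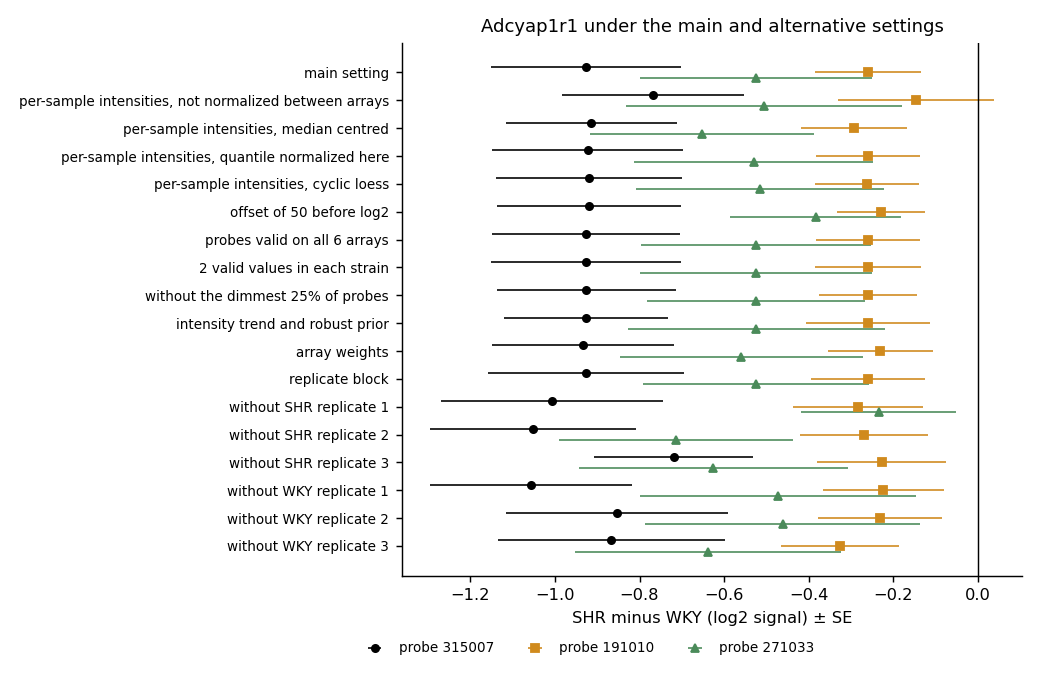
Difference between the strains (SHR minus WKY, log2 signal ± SE) at the 3 Adcyap1r1 probes in the main and the alternative settings of normalization, filter, model and arrays. All estimates lie below 0, between -1.06 and -0.72 for probe 315007, between -0.33 and -0.15 for probe 191010 and between -0.71 and -0.23 for probe 271033.

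Vipr1, the VPAC1 receptor gene, did not separate the strains. Its intensities were 977, 1348 and 1044 in SHR arrays 1 to 3 against 1277, 1154 and 1159 in WKY arrays 1 to 3, and SHR held both the lowest and the highest array. The mean log2 signal was 10.12 ± 0.25 (SD, n = 3) in SHR and 10.22 ± 0.082 in WKY. The difference was -0.10 ± 0.16 (SE), with a 95% interval from -0.49 to 0.29 (limma, adjusted p = 0.877). It was 0.087 without normalization between arrays, -0.011 without SHR 1 and -0.24 without SHR 2.

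Vipr2, the VPAC2 receptor gene, was the member with a slightly higher mean in SHR. Its intensities were 833, 1018 and 911 in SHR arrays 1 to 3 against 884, 863 and 882 in WKY arrays 1 to 3. The WKY arrays lay close together and within the range of the SHR arrays. The mean log2 signal was 9.84 ± 0.15 (SD, n = 3) in SHR and 9.78 ± 0.019 in WKY. The difference was 0.066 ± 0.13 (SE), with a 95% interval from -0.25 to 0.38 (limma, adjusted p = 0.908), and it was -0.0087 without SHR 2. For both VPAC receptors these intervals leave out a change as large as the 1.90-fold estimate for Adcyap1r1, but no test compared one gene's difference with another's.

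The 3 genes whose pattern over the 6 arrays came nearest to Adcyap1r1 at probe 315007 were Peli1, Bmp4 and Cspg4. Nearness was the mean absolute difference of log2 values, each gene centred on its own mean, among 11662 other genes, and only Adcyap1r1 spanned the 1 log2 unit set for this search. Peli1, a ubiquitin ligase of innate immune signalling, lay 0.091 away, with intensities of 6403, 7522 and 4489 in the SHR arrays against 7727, 11629 and 11284 in the WKY arrays. Bmp4, a secreted bone morphogenetic protein, lay 0.10 away, with 1296, 1526 and 1026 in the SHR arrays against 1877, 2626 and 2156 in the WKY arrays. Cspg4, the NG2 proteoglycan of oligodendrocyte precursors and pericytes, lay 0.11 away, with 2009, 2273 and 1256 in the SHR arrays against 2292, 3307 and 3648 in the WKY arrays. SHR 3 was the lowest array for all 3, as for Adcyap1r1 at probe 315007. At Adcyap1r1 probe 271033 the lowest array was SHR 1, with 84.3 against 145 in SHR 3. The search used the strain difference itself, so their lower SHR signal is a description, and each of these genes had 1 probe tested.

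Markers of the cell types in the culture were set beside the Adcyap1r1 values. Only the brightest genes of these cell type lists are named first. The astrocyte genes Aqp4, Slc1a3 and Gja1 read between 28567 and 38852 on all arrays, and the microglial genes Aif1, Csf1r and C1qa at least 33124. The neuronal genes Stmn2, Gap43 and Uchl1 read between 9529 and 21576, and the oligodendrocyte genes Mbp, Cnp and Cldn11 between 9786 and 38665. The lists were not bright throughout. Of the astrocyte markers 9 of 13 lay above the array median, and of the microglial markers 12 of 13. The counts were 8 of 12 for neuronal and 11 of 14 for oligodendrocyte lineage markers. Among the dim markers, neuronal Snap25 read between 36.9 and 104 and astrocyte Slc1a2 between 76.4 and 188. Of 6 hindbrain genes with a probe, Hoxa2, Hoxb4, Hoxb5 and Phox2a read between 806 and 2493, above the array median of 520, and Hoxa5 and Lmx1b between 25.2 and 119. Of 2 forebrain genes, Emx2 read between 31.7 and 120 and Dlx5 between 437 and 532, so these lists alone do not settle the region. For 13 of 14 astrocyte markers with a probe, the median difference was -0.0077 and the summed intensities spanned 220767 to 227840 in SHR and 219543 to 230552 in WKY, ranges that overlap. For 14 of 17 oligodendrocyte lineage markers the median difference was -0.87 and the summed intensities spanned 79190 to 159757 in SHR and 149822 to 174748 in WKY. Their mean centred values were -0.62, 0.33 and -0.78 in the SHR arrays against 0.34, 0.50 and 0.23 in the WKY arrays, low in SHR 1 and SHR 3 while SHR 2 lay within the WKY range. For 12 of 16 neuronal markers the median was -0.12, with mean centred values of -0.24, 0.24 and -0.24 in the SHR arrays against -0.079, 0.27 and 0.050 in the WKY arrays. Fibroblast and meningeal markers had a median of 0.67 and summed to 50236 to 68736 in SHR and 36723 to 45152 in WKY, and ependyma and choroid plexus markers had a median of 0.77. The medians were -0.076 for microglia, 0.16 for endothelial cells and pericytes, -0.12 for Schwann cells, -0.027 for hindbrain and -0.34 for forebrain position. Clic6, a choroid plexus gene, was the one tested marker not above 0 on an array. Their part in the Adcyap1r1 difference was not tested.

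**Figure D4:**
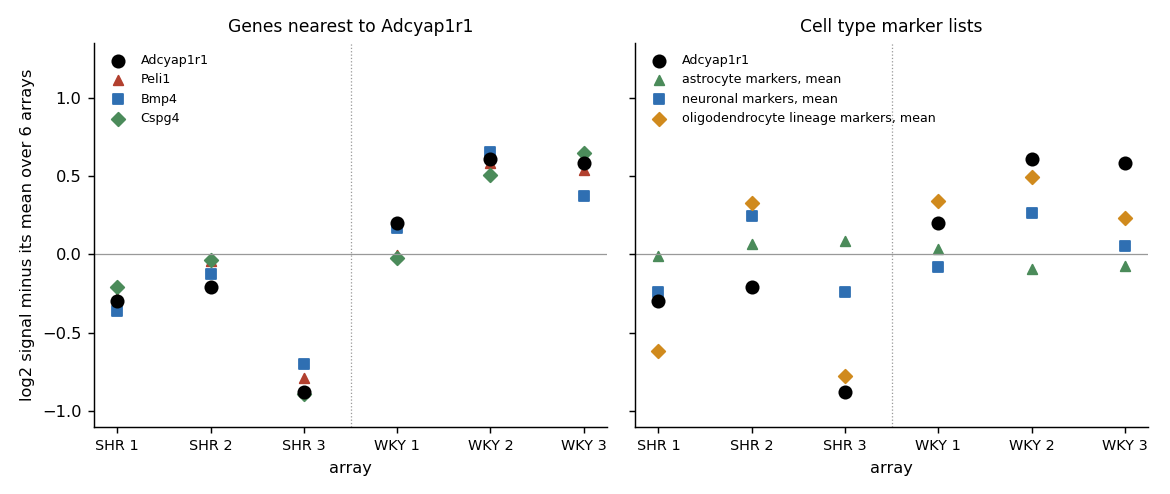
Log2 signal minus its mean over the 6 arrays, by array, for Adcyap1r1 (probe 315007, black) with its nearest genes Peli1, Bmp4 and Cspg4 (left) and with the mean of astrocyte, neuronal and oligodendrocyte lineage markers (right). Adcyap1r1 and its nearest genes are lowest in SHR 3, oligodendrocyte lineage markers are low in SHR 1 and SHR 3, and astrocyte markers stay between -0.096 and 0.086.

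The surrounding pathway was described by 9 lists with 133 genes. Of these, 119 were tested at their brightest probe, counting Mycbp2, which was matched by name in place of Pam. Together they had a median difference of -0.066, with 73 genes below 0, beside a median of -0.0012 over all 12082 named genes. At an unadjusted p under 0.05 there were 9 genes, 7 lower and 2 higher in SHR, or 7.56% beside 6.84% of all named genes (3.41% lower and 3.43% higher), and 0 passed an adjusted p of 0.05 in limma. The pathway as a whole thus had a share of small p-values near that of all genes.

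**Figure D5:**
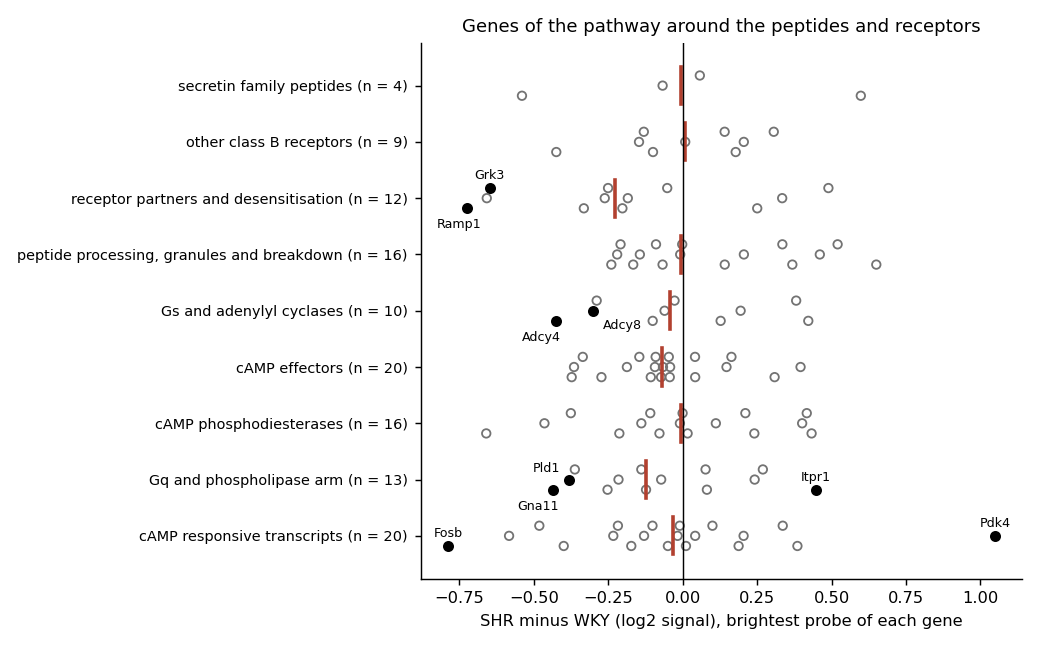
Difference between the strains (SHR minus WKY, log2 signal) for each gene of the 9 pathway lists at its brightest probe, with red bars for list medians. Mycbp2 is plotted in place of Pam. Filled and named points have an unadjusted p under 0.05 (limma), and no gene passed after adjustment. Points of every list lie on both sides of 0, and receptor partners and desensitisation has the lowest median, -0.23.

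Relatives of the peptides and receptors held no gene with an unadjusted p under 0.05. The 4 other secretin family peptide genes had a median of -0.0049. The incretin gene Gip differed by -0.54 ± 0.39 (SE), but by -0.013 at its other probe. Ghrh, which encodes the growth hormone releasing hormone, differed by 0.60 ± 0.38. Single arrays also weigh heavily on Gip at its brightest probe and on Ghrh. Gip ran from -0.94 without SHR 1 to -0.23 without SHR 3, and Ghrh from 0.28 without SHR 3 to 0.87 without SHR 2. Gcg, the glucagon precursor gene, gave -0.067 ± 0.15 and Sct, the secretin gene, 0.058 ± 0.53, and both turned sign in some settings. The 9 other class B receptors had a median of 0.0086. Sctr, the secretin receptor gene, gave 0.31 ± 0.22, but -0.16 at its other probe. The glucagon receptor gene Gcgr gave -0.42 ± 0.50, but 0.11 at its other probe. The parathyroid hormone receptor genes Pth1r and Pth2r gave 0.18 ± 0.18 and -0.13 ± 0.17.

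Receptor partners and desensitisation genes had the lowest median, -0.23, with 9 of 12 genes below 0, and it stayed below 0 in every alternative run for the list (-0.34 to -0.078). Of these genes, 2 lower and 0 higher had an unadjusted p under 0.05. Ramp1, which pairs with the calcitonin receptor-like receptor, read 959, 746 and 1189 in the SHR arrays against 1839, 1447 and 1444 in the WKY arrays, with no overlap. Its difference was -0.73 ± 0.21 (limma, adjusted p = 0.549), and its other probe gave -0.79. Grk3, a kinase that desensitises G protein-coupled receptors, differed by -0.65 ± 0.19 (limma, adjusted p = 0.558), but its other probe gave -0.092. Grk4, of the same kinase family, gave 0.33 ± 0.20 and the scaffold gene Nherf1 0.25 ± 0.16.

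The list of peptide processing and dense core granule genes had a median of -0.0049 over 16 genes, with no unadjusted p under 0.05. These 16 include Mycbp2 (-0.21), which a shared name brought in for the listed Pam and which was not itself chosen for the list. Pcsk5, a proprotein convertase, gave 0.46 ± 0.22 at its brightest probe but -0.71 at its other probe. The granule gene Scg3 gave 0.33 ± 0.23, Cadps, which primes granules for release, -0.22 ± 0.18, and Pcsk1n, which encodes an inhibitor of a convertase, -0.14 ± 0.15.

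In the cyclic AMP arm, 10 genes of the stimulatory G protein and adenylyl cyclases had a median of -0.044, and 2 of them, both lower in SHR, had an unadjusted p under 0.05. The adenylyl cyclase genes Adcy4 (-0.43 ± 0.16, SE) and Adcy8 (-0.30 ± 0.12) had no overlap between the strains, with adjusted p-values of 0.609 and 0.647 in limma. Adcy6 gave 0.19 ± 0.15 and Adcy10, the soluble cyclase, 0.38 ± 0.25, but -0.22 at its other probe. The 20 cyclic AMP effectors had a median of -0.069 and no unadjusted p under 0.05. Among them Rapgef3 and Rapgef4, which encode exchange proteins activated by cyclic AMP, gave -0.34 ± 0.19 and 0.40 ± 0.29. The transcription factor gene Atf2 gave 0.31 ± 0.16, but 0.056 at its other probe. The coactivator gene Ep300 gave -0.27 ± 0.13, with -0.065, 0.48 and -0.020 at its other probes.

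The 16 phosphodiesterase genes, which break down cyclic nucleotides, had a median of -0.0048 and no unadjusted p under 0.05. Pde4b read 6330, 9474 and 4400 in the SHR arrays against 8703, 10498 and 11387 in the WKY arrays. It was low in SHR 3, as Adcyap1r1 was at probe 315007, but SHR 2 lay within the WKY range. Its difference was -0.66 ± 0.29 (SE), and -0.67 at its other probe, and it was -0.39 without SHR 3 and -0.94 without SHR 2. Pde10a gave -0.46 ± 0.22, and -0.49 at its other probe. Pde3b gave 0.40 ± 0.21, and Pde4a 0.42 ± 0.30 but 0.12 at its other probe.

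The Gq and phospholipase arm, the other route of PAC1, had a median of -0.12 over 13 genes, and an unadjusted p under 0.05 for 3 of them, 2 lower and 1 higher. That median was 0.072 without normalization between arrays. Gna11, a G protein subunit of this route, gave -0.44 ± 0.18 (SE), and -0.33 at its other probe. Pld1, a phospholipase D, gave -0.38 ± 0.13, and 0.072 at its other probe. Itpr1, a calcium channel opened by inositol trisphosphate, gave 0.45 ± 0.17 with 1 probe, and Itpr3 0.27 ± 0.15. The adjusted p-values of Gna11, Pld1 and Itpr1 were 0.646, 0.575 and 0.627 in limma.

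Transcripts that cyclic AMP can induce lay on both sides of 0, with a median of -0.033 over 20 genes. An unadjusted p under 0.05 was found for 1 lower and 1 higher gene. Fosb, an immediate-early transcription factor, read 78.6, 88.5 and 85.9 in the SHR arrays against 148, 132 and 158 in the WKY arrays, a dim probe with no overlap. Its difference was -0.79 ± 0.13 (SE; limma, unadjusted p = 0.000808, adjusted p = 0.297). Pdk4, a kinase that restrains pyruvate oxidation, read 196, 202 and 196 in the SHR arrays against 154, 83.7 and 68.0 in the WKY arrays. This probe was also dim, and its log2 values spread more in WKY (SD 0.61) than in SHR (SD 0.026). Its difference was 1.05 ± 0.30 (limma, adjusted p = 0.538), opposite to that of Fosb. The Pdk4 value ran from 0.75 with an offset of 50 before log2 to 1.39 without WKY 1. Sik1, a kinase of the cyclic AMP response, gave -0.48 ± 0.24, and -0.25 without WKY 2. The somatostatin gene Sst gave 0.39 ± 0.29, with 0.13 without SHR 2 and 0.61 without SHR 3.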

How the data were processed

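RNA of 6 cultures was measured on single-colour CodeLink rat arrays. The authors subtracted background from the spot intensities, dropped those under the negative controls plus 2 SD, and quantile normalized, per the labels. The deposited series table holds linear intensity with 1 common distribution, while the per-sample tables are not normalized between arrays. Values not above 0 (615 per array, including a missing code) were left out before taking log2. Tested probes had all 3 values of one strain and 2 or more of the other. The test was limma 3.58.1 in R 4.3.3 (lmFit, then eBayes), two-sided, for SHR minus WKY, with Benjamini-Hochberg adjustment over 33249 probes. Exact permutation tests used scipy 1.17.1, and figures matplotlib 3.10.9. The fit was tested on simulated data.

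Names come from the platform annotation, and upstream sequences from RefSeq (GRCr8). For each list the 2 genes per direction with the smallest p were named, from cell type lists the 3 brightest genes, all position genes, and for likeness the 3 nearest genes. Members and lists were chosen with earlier results of these data known. No batch is given in the sources used here. Alternatives covered the source and normalization of values, filters, variance model, array weights, probes per gene, a replicate block and leaving out each array.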

Additional observations from a re-analysis of the deposited data

How the results depend on the processing

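No member probe passed an adjusted p of 0.05 in any setting run. Adcyap1r1 probe 315007 kept its direction and an unadjusted p under 0.05 in all 18 alternatives that keep the probe (adjusted p 0.291 to 0.857), and without single arrays its difference lay between -1.06 and -0.72. The count of member probes with an unadjusted p under 0.05 was 1, and 2 with median-centred per-sample intensities, where probe 271033 joined, and between 1 and 2 without single arrays. Over all probes, 0 passed in the main setting and without each single array. The count was 1 with an offset of 50 before log2, 5 with probes valid on all 6 arrays, 18 without the dimmest 25% of probes, 28 with an intensity trend and robust prior, 5 with array weights, 9 with 1 probe per named gene, 7 with the mean of a gene's probes and 13 at an adjusted p of 0.10. Some of these settings test fewer probes; otherwise the cause was not tested. Small member differences turned sign: Adcyap1 to 0.15 without normalization between arrays, 0.0027 with median centring, 0.027 without SHR 1 and 0.0048 without WKY 3 (without single arrays, -0.054 to 0.027), Vip to 0.030 and Vipr1 to 0.087 without normalization between arrays, and Vipr2 to -0.0087 without SHR 2 (-0.0087 to 0.14). The unnormalized intensities shift the median of all probes by 0.12. Among 39 other named genes, 724 of 737 values kept their direction and their side of the adjusted threshold, but 67 changed side of an unadjusted p of 0.05. Adcy8 held that p in 8 of 19 alternatives, Gna11 in 11, Adcy4 and Pld1 in 14 and Itpr1 in 15. Leaving out 1 array moved 25 of the 39 genes by over 1.5 times. Without normalization between arrays Gcg turned to 0.038, Sct to -0.0080, Pth2r to 0.059 and Pcsk1n to 0.029. Sct was -0.15 with median centring, and -0.15, -0.26 and -0.32 without SHR 1, SHR 3 and WKY 1 (-0.32 to 0.59). Without single arrays Gcg ranged from -0.19 to 0.0013, Gcgr from -0.84 to 0.041 and Pth2r from -0.21 to 0.023. Pcsk5 was -0.12 and Ep300 0.031 with the mean of a gene's probes. Of 153 list medians in the alternatives, 137 moved by less than the spread between arrays, and of 153 list counts at an unadjusted p under 0.05, 35 moved by over 1.5 times or from or to 0. When the array number entered the fit as a replicate block, 0 probes passed, 2798 had an unadjusted p under 0.05, and Adcyap1r1 probe 315007 kept -0.93 ± 0.23 (limma, unadjusted p = 0.0133). For arrays 1, 2 and 3, the deviation from the SHR mean and that from the WKY mean correlated at 0.0011, 0.22 and -0.129, and not every array was closest to its own number, so the numbers were not taken as pairs. The number of arrays limits every value.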
